A study of Mus musculus with 82 samples.

Results

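Gene body H3K27ac peaks are places inside annotated genes, away from their start sites, where histone H3 carries acetyl groups on lysine 27 in hematopoietic stem cells (HSCs). The members were chosen by their position alone: every distinct peak that the deposited table of H3K27ac peaks annotates to a gene body. There were 13680 such peaks among 39557, or 34.6% of the table, beside 13392 promoter peaks, 12221 intergenic peaks and 264 peaks at transcript ends. They were listed in 6057 genes, of which 6031 were found in the table of RNA-seq counts, 14 of them through a synonym.

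The HSCs were sorted from the bone marrow of male C57BL/6J mice as LSK CD34- Flk2- CD150+ cells, young mice being 3 to 4 months old (YHSC) and old mice 24 to 26 months old (OHSC). H3K27ac was measured by ChIP-seq in 2 libraries per age, from small numbers of sorted cells with bacteria added as a carrier. RNA-seq covered 4 young libraries, each from pooled mice, and 8 old libraries, each from a single mouse, so the young libraries average over animals and the old ones do not. ATAC-seq, which reads chromatin accessibility, was analysed in 4 libraries per age, the old ones being replicates 5 to 8. Old replicates 1 to 4 were not analysed here. All the mice were untreated and no gene was altered in them. The RNA-seq libraries held 20475764 to 24654742 counts and the ATAC-seq libraries 15427933 to 26260337. The summed mRNA of 8 HSC markers lay between 3291 and 3628 CPM (counts scaled to the size of the library) in YHSCs and between 3282 and 3912 in OHSCs. The 10 B cell and plasma cell markers summed to 144 to 1299 CPM in YHSCs and 44.4 to 300.5 CPM in OHSCs, the highest value being that of young replicate 4, and the count of genes with lower mRNA and the calls in them are therefore also given without that library. Other counts of lower mRNA include it. Other marker sums stood higher in every old library: erythroid, 18.9 to 22.3 CPM in YHSCs and 30.9 to 191.7 CPM in OHSCs, T and NK cell, 36.7 to 39.9 and 78.2 to 104.3 CPM, and megakaryocyte, 147.4 to 185.3 and 256.2 to 353.3 CPM. In these bulk samples more cells of a type and more RNA per cell cannot be told apart.

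H3K27ac is deposited by the acetyltransferases p300 and CBP and marks active promoters and enhancers. Enhancers are stretches of DNA that bind transcription factors and raise the transcription of a gene that can lie near or far, and many sit in introns, sometimes in introns of a gene other than the one they act on. In HSCs, enhancers are bound by factors of the GATA, RUNX, ETS, MEIS and AP-1 families. During aging HSCs become more numerous and their output shifts towards platelets and myeloid cells.

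The sequences of 6 windows of 200 bases are given first, from peaks described further on. Each lies inside its peak, is centred on the accessible region there and is written on the plus strand of mm10 (GRCm38.p6, from RefSeq). Capitals mark short motifs, each searched on both strands. For the GATA factors the motif searched was AGATAA. For the RUNX factors it was TGTGGT. The ETS motif was spelled CAGGAAGT. For MEIS factors the letters were TGACAG, which can share bases with the ETS motif. The AP-1 motif was TGANTCA, where N is any base. The E-box was searched as CAGCTG only. The first is from the peak with the largest rise, the next 4 are from peaks in genes whose mRNA was higher in OHSCs, and the last is from a gene whose mRNA was lower.
Nrg3 chr14:38533823-38534022: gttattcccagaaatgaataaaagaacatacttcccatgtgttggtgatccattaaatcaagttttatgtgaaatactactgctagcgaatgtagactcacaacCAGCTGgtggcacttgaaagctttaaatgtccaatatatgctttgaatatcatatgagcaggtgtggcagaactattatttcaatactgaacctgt
Kcnb2 chr1:15658678-15658877: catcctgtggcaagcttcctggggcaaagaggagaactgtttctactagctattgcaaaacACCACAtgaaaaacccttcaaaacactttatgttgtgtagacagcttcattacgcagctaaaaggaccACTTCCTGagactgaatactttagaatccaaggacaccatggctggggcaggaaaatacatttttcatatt
Tdrd9 chr12:111990364-111990563: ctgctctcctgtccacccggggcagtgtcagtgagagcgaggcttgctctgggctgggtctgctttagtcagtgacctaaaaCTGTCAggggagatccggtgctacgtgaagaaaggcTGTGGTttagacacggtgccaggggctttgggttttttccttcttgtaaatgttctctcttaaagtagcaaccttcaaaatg
Ntf3 chr6:126153323-126153522: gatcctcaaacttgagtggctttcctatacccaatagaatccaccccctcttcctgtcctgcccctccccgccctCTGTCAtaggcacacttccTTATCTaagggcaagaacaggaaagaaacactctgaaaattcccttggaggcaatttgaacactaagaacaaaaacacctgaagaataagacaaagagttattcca
Chrm3 chr13:10220499-10220698: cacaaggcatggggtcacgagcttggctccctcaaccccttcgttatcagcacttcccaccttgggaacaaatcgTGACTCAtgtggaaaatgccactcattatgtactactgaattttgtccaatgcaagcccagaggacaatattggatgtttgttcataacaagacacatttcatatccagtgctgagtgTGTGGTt
Il9r chr11:32195990-32196189: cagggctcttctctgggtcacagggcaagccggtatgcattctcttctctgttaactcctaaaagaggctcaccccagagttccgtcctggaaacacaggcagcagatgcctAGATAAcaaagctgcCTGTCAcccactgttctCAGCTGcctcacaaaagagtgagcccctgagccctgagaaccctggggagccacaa

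The gene body peaks were intronic for the most part. Their centres lay inside the listed RefSeq transcript for 13614 peaks. Of these, 12708 (93.4%) lay in an intron, 526 in a coding exon, 295 in a 3′ untranslated region, 60 in an exon of a non-coding transcript and 25 in a 5′ untranslated region. The other 66 were listed with names that have many copies or another place in RefSeq, among them the microRNA Mir5098 with 22 peaks. First introns held 4133 of the intronic peaks (32.5%). The median distance from the start of the gene was 36.5 kb, with quartiles of 14.4 and 90.0 kb. A single gene body peak was found in 3345 genes, while 118 genes had 10 or more, led by the phosphodiesterase gene Pde4d, named after its values were seen, with 32 and the HSC transcription factor gene Mecom with 28.

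Gene body peaks were narrower and weaker than promoter peaks. Their median width was 837 bp against 1195 bp at promoters. The signal of a peak is the value deposited for it after each library was set to a fixed number of reads. The median signal of the gene body peaks was 1.75 and 1.549 in the YHSC libraries and 1.76 and 1.82 in the OHSC libraries, against 4.02, 3.53, 3.59 and 3.76 at promoters. Both OHSC libraries stood above both YHSC libraries in gene bodies, by as little as 1.746 against 1.756, while the ages overlapped at promoters. YHSC replicate 2 was the lowest of the 4 in both classes. Across the gene body peaks the log2 signals of the replicates correlated with r = 0.851 in YHSCs and r = 0.879 in OHSCs, and those of different ages with r = 0.73 to 0.765, as a description over peaks.

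The comparison of OHSCs with YHSCs asks whether enhancer acetylation inside genes changed with age, and in which direction. More gene body peaks had higher than lower H3K27ac in OHSCs. A peak was called when the mean signals differed by more than 1.5-fold and each library differed by at least 1.2-fold from either library of the other age. By that rule 1646 peaks (12%) were called higher and 414 (3.03%) lower, where among all peaks of the series 9.11% were called higher and 2.27% lower. The gene body shares stood above those of the whole table and near those of intergenic peaks, where 12.8% were called higher and 2.74% lower. Promoter peaks were called less often, 2.71% higher and 1.1% lower. The rule is a description and carries no test.

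With limma on log2(signal + 0.1) and an adjusted p under 0.05 over all peaks, 405 gene body peaks (2.96%) rose and 49 (0.358%) fell by more than 1.5-fold, where 2.24% of all peaks rose and 0.316% fell. Of the peaks called higher by fold 403 also rose in this test, and of those called lower 49 also fell. The number of calls rested on the libraries used: it ranged from 19 to 1829 higher and from 2 to 247 lower when 1 of the 4 libraries was left out. The lowest counts came without OHSC replicate 2, and 1829 higher came without YHSC replicate 1. With 2 libraries per age an exact permutation test of a single value cannot give a p below 0.333. The study calls its ChIP-seq libraries of an age biological replicates, and the p-values measure the spread between them.

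Over the gene body peaks the log2 ratio (OHSC over YHSC) had a median of 0.12, which was between 0.02 and 0.23 when each OHSC library was set against each YHSC library, in 4 pairings. Over all peaks it was 0.05 and over promoters -0.03, with pairings from -0.13 to 0.09. With the libraries set to the same median signal the gene body and promoter medians were 0.03 and -0.12. This scaling shifts both medians by nearly the same amount, so it cannot test their order. With that scaling 1257 gene body peaks were called higher and 621 lower, so that the higher calls were 66.9% of all calls in place of 79.9%. Over all peaks this share was nearly the same, 65.9% in place of 80.0%, and at promoters it was 47.3% in place of 71.2%.

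Low peaks held more of the calls than high ones. Of the 923 gene body peaks with a mean signal under 1, 40.4% were called higher and 7.48% lower. Of the 310 peaks with a mean over 5, 2.9% were called higher and none was called lower. Peaks that the peak caller had found only in OHSCs numbered 4910 (35.9%), against 1671 (12.2%) found only in YHSCs and 7099 found in both. Of the 1646 peaks called higher, 1405 were found by the caller only in OHSCs, and of the 414 called lower, 327 only in YHSCs. A peak found at 1 age alone entered the table through that age, which favours a higher value there, and the p-values of such peaks carry the same limit. Of the 7099 peaks found at both ages, 241 (3.39%) were called higher and 85 (1.2%) lower. Their median log2 ratio was 0.04, where that of all gene body peaks was 0.12. The share called higher was 9.75% within 10 kb of the start of the gene, 11.5% from 10 to 50 kb and 17.6% in the 238 peaks farthest from it. The median mean signal was 1.91 in the nearest and 1.39 in the farthest of these groups.

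The 8 peaks with the largest rises were all intronic. Of their 7 genes, 5 had little mRNA at either age, the highest of these being Pcdh15 with at most 3.91 CPM in any library. The largest was in intron 3 of Nrg3, a neuregulin gene of the nervous system, at chr14:38532880-38534432, 939 kb from its start. The signal was 0.0496 and 0.0376 in the YHSC libraries and 1.34 and 1.77 in the OHSC libraries, a 35.6-fold difference of means (limma log2 change 3.51 ± 0.591 SE, adjusted p = 5.6e-04), at a peak that the caller found only in OHSCs. The mRNA of Nrg3 was 0.295, 0.992, 0.629 and 0.577 CPM in YHSCs and 0.336, 0.648 and 1.10 CPM (lowest, median, highest) in OHSCs. Its mRNA groups overlapped (log2 change 0.12, edgeR adjusted p = 0.886).

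Gpr158, which encodes an orphan G protein-coupled receptor of the brain, held 3 gene body peaks, and all 3 were called higher. One, 202 kb from the start, had signals of 0.208 and 0.181 in YHSCs and 1.47 and 1.89 in OHSCs, 8.63-fold higher (adjusted p = 6.0e-04). Its mRNA stayed at 0.165 to 0.766 CPM in YHSCs and 0.0839 to 0.645 CPM in OHSCs. The Gpr158 groups overlapped in mRNA. At the peaks the ages stood apart, as the rule for a call requires of every called peak.

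Pcdh15, a protocadherin gene of the inner ear, had one peak at 0 and 0.0983 in YHSCs and 0.820 and 1.28 in OHSCs (adjusted p = 0.0135). Acsm1, for a mitochondrial acyl-CoA synthetase, had a peak at 0.251 and 0.338 in YHSCs and 2.18 and 2.32 in OHSCs, 7.64-fold higher (adjusted p = 4.4e-05). Neither gene differed in mRNA beyond the spread of its libraries, with adjusted p = 0.862 for Pcdh15 and 0.733 for Acsm1. The Acsm1 peak lay 0.148 kb from the start of another gene, Gm39079, named after the values were seen. Gm39079 mRNA was not tested.

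Of these 7 genes, 3 had higher mRNA. In Trpc1, a cation channel gene, the peak 7.31 kb from the start went from 0.201 and 0.218 in YHSCs to 2.67 and 2.14 in OHSCs (11.5-fold, adjusted p = 1.3e-05), and its mRNA from 1.77, 3.07, 1.84 and 2.14 CPM to 15.1, 18.5 and 24.1 CPM (lowest, median, highest; log2 change 3.09 ± 0.16 SE, adjusted p = 6.2e-12). In Rbm19, which serves ribosome assembly, the peak in intron 23 went from 0.540 and 0.349 to 3.03 and 3.87 (7.77-fold, adjusted p = 8.3e-07), and its mRNA rose by 0.74 on the log2 scale. Il1rapl1, an interleukin-1 receptor-like gene of synapses, had a peak at 0 and 0.147 in YHSCs and 0.740 and 1.29 in OHSCs and mRNA higher by 1.22 on the log2 scale, at 0.288 to 1.49 CPM in YHSCs and 1.40 to 2.62 CPM in OHSCs. For Trpc1 and Rbm19 no old library overlapped a young one in either measure, while the mRNA of Il1rapl1 overlapped. Il1rapl1 passed the filter on low counts through its old libraries.

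The largest falls were smaller than the largest rises. In intron 12 of Csmd1, a very long gene of the nervous system, the peak at chr8:16263679-16264233 had signals of 1.25 in both YHSC libraries and 0.379 and 0.200 in the OHSC libraries, a ratio of 0.232 (adjusted p = 0.0193). The other 3 falls were in Ppa2, a mitochondrial pyrophosphatase gene, with a ratio of 0.263, in the 3′ untranslated region of Wdtc1 with 0.323 and in Dlgap4 with 0.329. Of their other gene body peaks, both of Csmd1 and the one of Wdtc1 were called higher. None of these 4 genes was called in mRNA.

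**Figure D1:**
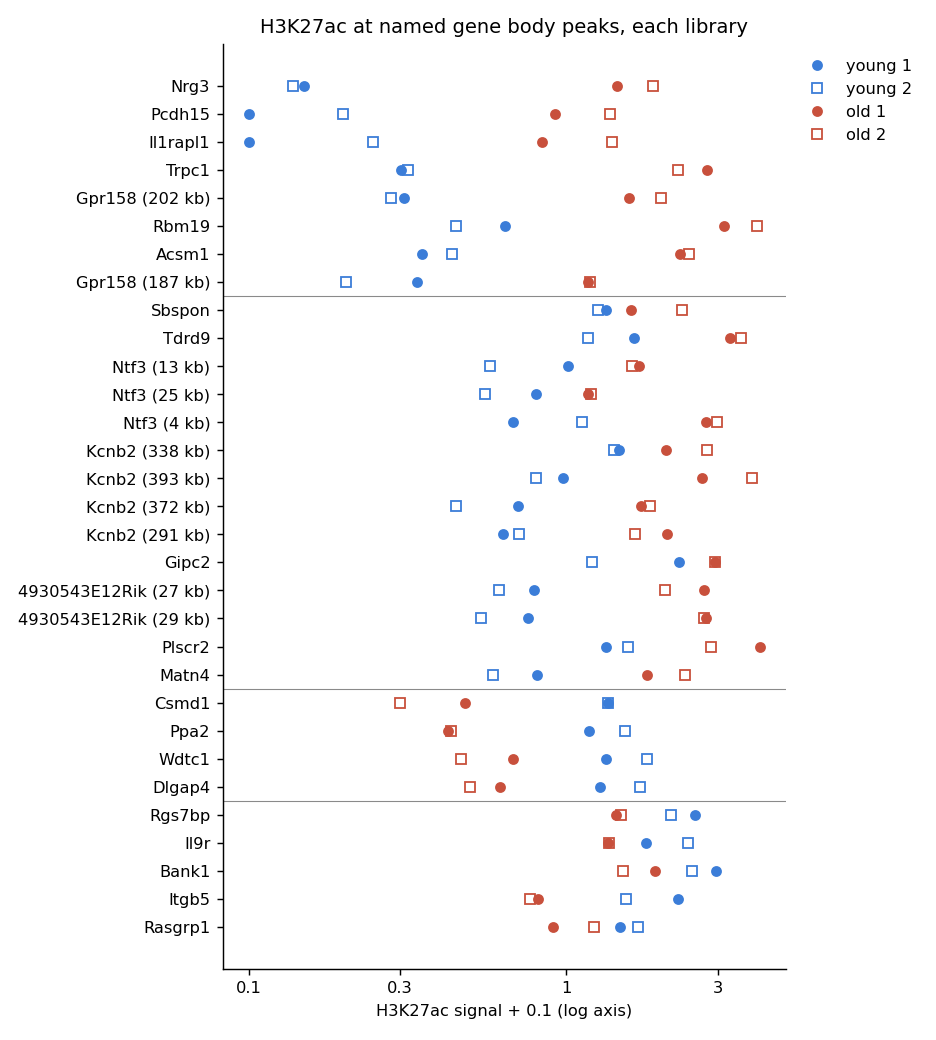
H3K27ac signal plus 0.1 on a log axis at named gene body peaks, with filled circles for replicate 1 and open squares for replicate 2, blue for YHSCs and red for OHSCs. From top to bottom the blocks hold the largest rises, peaks called higher in genes with higher mRNA, the largest falls and peaks called lower in genes with lower mRNA. The rises at the top start from near 0, Nrg3 being 35.6-fold higher in OHSCs, whereas the falls in genes with lower mRNA had ratios from 0.387 to 0.652.

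Next, each peak was read against the mRNA of the gene that holds it. Of the 5446 genes with a gene body peak that passed the filter on low counts, 382 (7.01%) had higher and 217 (3.98%) had lower mRNA in OHSCs, by more than 1.5-fold with an edgeR adjusted p under 0.05, where 4.69% of all genes tested were higher and 2.83% lower. Without young replicate 4 these counts were 370 and 194.

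Among the peaks called, more were higher than lower in genes with higher mRNA, and more were lower than higher in genes with lower mRNA. The second of these turned without YHSC replicate 1, when 72 peaks were called higher and 52 lower in genes with lower mRNA. In the 382 genes with higher mRNA, 253 of 978 peaks (25.9%) were called higher in H3K27ac and 14 (1.43%) lower. In the 217 genes with lower mRNA, 22 of 598 peaks (3.68%) were called higher and 48 (8.03%) lower, or 19 and 50 peaks without young RNA-seq replicate 4. In the 1361 genes with similar mRNA, meaning a difference of less than 5%, 303 of 3022 peaks (10.0%) were called higher and 82 (2.71%) lower.

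The medians followed the same order. The median log2 ratio was 0.31 in genes with higher mRNA (0.20 to 0.47 over the 4 library pairings), 0.11 in genes with similar mRNA (0.01 to 0.22) and -0.07 in genes with lower mRNA (-0.15 to 0.04). The ranges of the first and the last did not overlap. The last median turned to 0.03 without YHSC replicate 1, and with the libraries set to the same median signal the 3 values were 0.22, 0.02 and -0.15.

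Promoter peaks of the same genes, whose signal is higher, were called higher less often where the mRNA was similar or lower. In genes with higher mRNA 60 of 335 promoter peaks (17.9%) were called higher, in genes with similar mRNA 12 of 1432 (0.838%) and in genes with lower mRNA 1 of 178 (0.562%). Lower calls in genes with lower mRNA were about as frequent at promoters, 16 of 178 (8.99%), as in gene bodies, 8.03%. The share of gene body peaks called higher thus stood at 10.0% where the mRNA was similar, against 0.838% of promoter peaks. In the 1244 genes with similar mRNA that had both kinds of peak, the median of the gene body peaks was above that of the promoter in 858. Of the 290 genes with higher mRNA and both kinds of peak, 95 had a gene body peak called higher with no promoter call, 37 had both and 20 had the promoter call alone.

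**Figure D2:**
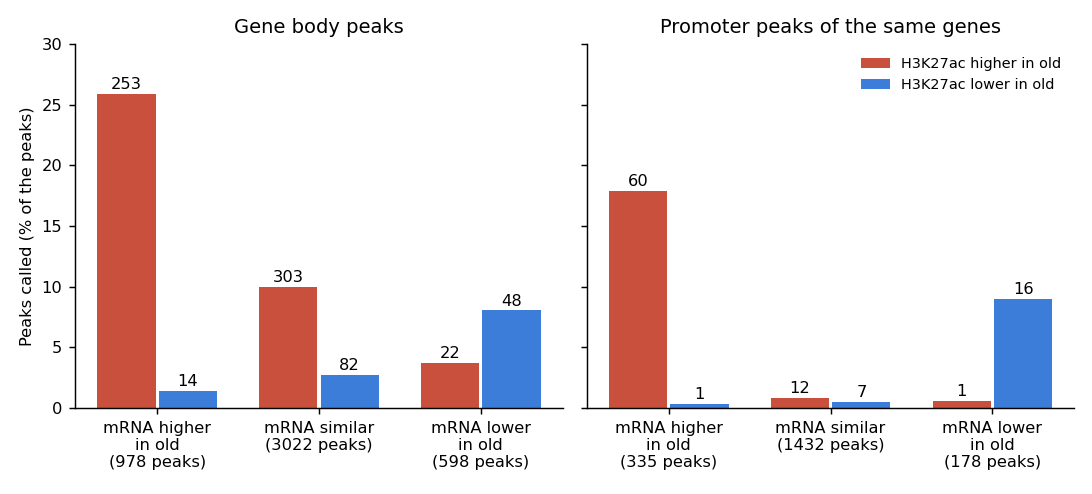
Share of peaks called higher (red) or lower (blue) in H3K27ac, in percent of the peaks, for genes with higher, similar or lower mRNA in OHSCs. The left panel holds gene body peaks and the right panel promoter peaks of the same genes, with the number of peaks called above each bar. In genes with similar mRNA 303 gene body peaks were called higher against 12 promoter peaks.

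Of all gene body peaks, 82.5% lay in genes tested whose mRNA was not called. Of the 1646 peaks called higher, 1263 (76.7%) lay in such genes and 253 (15.4%) in genes with higher mRNA. Of the 414 called lower, 324 (78.3%) lay in genes whose mRNA was not called and 48 (11.6%) in genes with lower mRNA. Read by gene, 195 tested genes had at least 2 peaks called higher and none lower, and 45 of them (23.1%) had higher mRNA. With exactly 1 such peak it was 111 of 900 (12.3%), and with no called peak 212 of 3992 (5.31%). The 13 genes with at least 2 lower peaks and no higher one included 5 (38.5%) with lower mRNA.

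The genes with the largest rise in mRNA among those with a peak called higher were Sbspon, Tdrd9, Ntf3, Kcnb2, Gipc2, 4930543E12Rik, Plscr2 and Matn4. Of these, 4930543E12Rik had at most 0.124 CPM in any young library and passed the filter on low counts through its old libraries alone. Kcnb2, for a voltage-gated potassium channel, had 5 gene body peaks, of which 4 in intron 2 were called higher and 3 of them passed limma. The one 393 kb from the start had signals of 0.878 and 0.703 in YHSCs and 2.57 and 3.74 in OHSCs, 3.99-fold higher (adjusted p = 4.7e-05). The one at 372 kb, whose window holds a RUNX and an ETS match, had 0.604 and 0.350 against 1.62 and 1.73, 3.51-fold higher (adjusted p = 0.0063). Its accessible region went from 0.275 to 0.908 CPM in YHSCs to 3.19 to 5.26 CPM in OHSCs (log2 change 2.86 ± 0.249 SE, adjusted p = 4.9e-14). The Kcnb2 mRNA was 0.337, 0.992, 0.719 and 1.03 CPM in YHSCs and 8.93, 17.4 and 25.6 CPM (lowest, median, highest) in OHSCs, with no overlap. The accessible region at the 372 kb peak passed the filter on low counts through its old libraries alone. At the Kcnb2 peak 338 kb from the start, also called higher, accessibility overlapped between ages (log2 change 0.14, edgeR adjusted p = 0.326).

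Sbspon, a secreted protein gene with somatomedin and thrombospondin domains, had the largest rise in mRNA (log2 change 4.89 ± 0.187 SE, adjusted p = 9.6e-10), from 2.32, 3.38, 3.01 and 2.84 CPM to 64.5, 87.0 and 107.6 CPM. Its only gene body peak had signals of 1.24 and 1.15 in YHSCs and 1.49 and 2.20 in OHSCs, and its difference did not pass limma (adjusted p = 0.258). It lies on chromosome 1 on the far side of Terf1 from Kcnb2. Terf1, for a telomere binding protein and named after its values were seen, was itself higher in OHSCs by 0.65 on the log2 scale (adjusted p = 3.1e-07), at 36.9 to 44.4 CPM in YHSCs and 54.6 to 75.7 CPM in OHSCs.

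Tdrd9, an RNA helicase gene of the germline that acts against transposable elements, had one gene body peak in intron 2, whose window holds a MEIS and a RUNX match. The signal was 1.54 and 1.07 in YHSCs and 3.17 and 3.45 in OHSCs, 2.54-fold higher (adjusted p = 8.7e-04). The mRNA went from 2.36, 2.21, 2.02 and 1.81 CPM to 44.6, 55.8 and 68.2 CPM (log2 change 4.72 ± 0.14 SE, adjusted p = 2.5e-14). No promoter peak was listed for Tdrd9, and its mRNA did not overlap between ages.

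Ntf3, which encodes the neurotrophin NT-3, had 3 gene body peaks, all in intron 1 and all called higher. The one nearest the start, at 3.75 kb, had 0.581 and 1.02 in YHSCs and 2.65 and 2.87 in OHSCs, 3.46-fold higher (adjusted p = 2.4e-04), while the other 2 had adjusted p = 0.0608 and 0.254. The printed window is from the peak at 13.2 kb, which did not pass limma (adjusted p = 0.0608). The mRNA was close to nil in YHSCs, at 0.0843, 0.0902, 0.0898 and 0.247 CPM, and reached 2.50, 3.03 and 4.02 CPM in OHSCs, through which alone the gene passed the filter on low counts. Matn4, for the matrix protein matrilin-4, had a peak over a coding exon at 0.708 and 0.488 in YHSCs and 1.69 and 2.26 in OHSCs, 3.30-fold higher (adjusted p = 0.0032), with mRNA of 10.6 to 15.2 CPM and 85.0 to 182.0 CPM. This peak lay 2.25 kb from the start of Rbpjl, named after its values were seen. Rbpjl mRNA was also higher in OHSCs, by 3.30 on the log2 scale. Plscr2, a phospholipid scramblase gene, had a peak 2.50-fold higher (adjusted p = 0.0016) and mRNA of 9.33 to 15.5 CPM and 102.3 to 149.0 CPM.

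**Figure D3:**
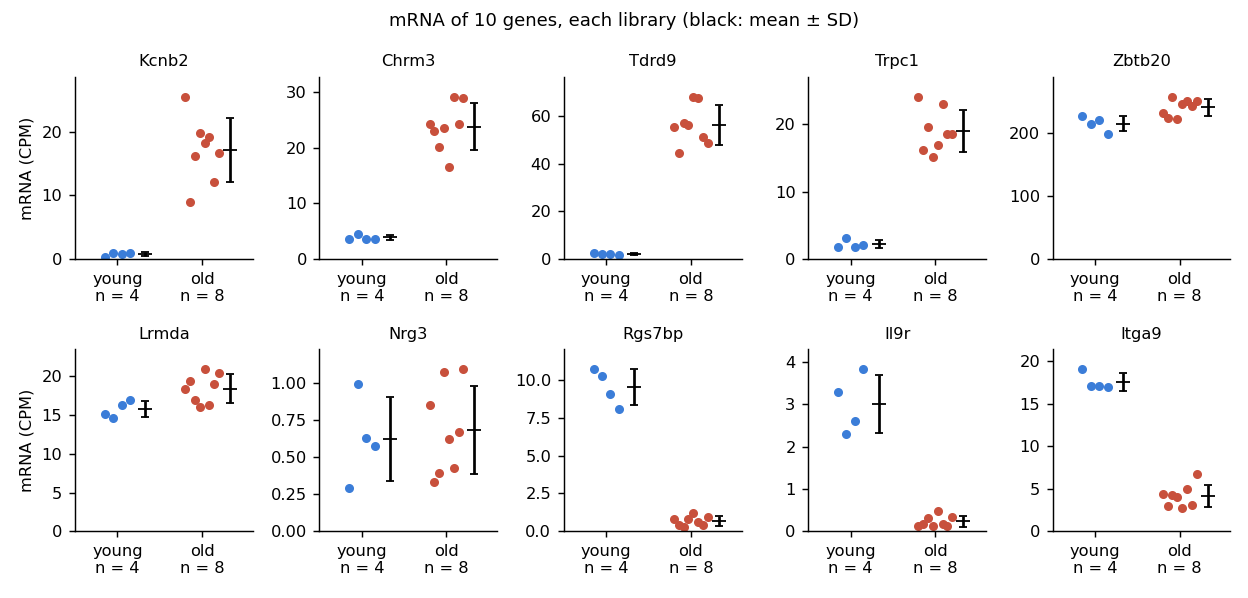
mRNA in CPM on linear axes from 0, one point per library, for 10 genes with called gene body peaks, with 4 young libraries in blue and 8 old libraries in red and black bars for mean ± SD. Kcnb2, Chrm3, Tdrd9 and Trpc1 were higher in every old library, Rgs7bp, Il9r and Itga9 lower in every old library, and Zbtb20, Lrmda and Nrg3 overlapped.

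Peaks called lower in genes with lower mRNA had ratios between 0.387 and 0.652 where named by the size of the mRNA change. Among genes with such a peak, the 5 with the largest fall in mRNA were Rgs7bp, Il9r, Bank1, Itgb5 and Rasgrp1. Il9r, for the interleukin-9 receptor, had one gene body peak at chr11:32195478-32196608, with 1.69 and 2.31 in YHSCs and 1.25 and 1.26 in OHSCs, a ratio of 0.629 (adjusted p = 0.196). Its mRNA went from 3.29, 2.30, 2.61 and 3.83 CPM to 0.129, 0.170 and 0.492 CPM (log2 change -3.66 ± 0.301 SE, adjusted p = 2e-09), and it passed the filter on low counts through its young libraries. Only the peak of the integrin gene Itgb5, with 2.14 and 1.44 against 0.714 and 0.669, passed limma among these 5 (ratio 0.387, adjusted p = 0.0219). Bank1, a B cell scaffold gene, had mRNA that fell by 3.17 on the log2 scale, from 13.2 to 22.2 CPM to 0.895 to 2.81 CPM, in libraries where the summed B cell markers also differed. The part of B cell RNA in this was not tested.

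H3K27ac and mRNA were also called in opposite directions, in 20 genes with lower mRNA and a peak called higher and in 14 genes with higher mRNA and a peak called lower. These were 20 of 217 and 14 of 382 genes, where 1281 of all 6057 genes had a peak called higher and 387 a peak called lower. Itga9, an integrin gene, had mRNA of 19.1, 17.0, 17.1 and 16.9 CPM in YHSCs and 2.73, 4.19 and 6.71 CPM in OHSCs, while its peak in intron 9 had 1.00 and 0.886 in YHSCs and 1.52 and 1.87 in OHSCs (ratio 1.80, adjusted p = 0.129). Another of its 10 gene body peaks was called lower, and its promoter was called lower. Igf2bp2, for a fetal-type RNA-binding protein, had mRNA that fell by 1.93 on the log2 scale, 1 peak called higher, 2 called lower and a promoter called lower. In the other direction Abca4, a retinoid transporter gene, had mRNA of 12.3 to 14.8 CPM in YHSCs and 53.2 to 94.4 CPM in OHSCs and 1 of 6 peaks called lower, with 2.68 and 2.48 against 1.63 and 1.552 (adjusted p = 0.101). None of the 6 peaks named by this rule passed limma.

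Some genes held several calls, and the chance of that grows with the number of peaks in a gene. In all, 224 genes had at least 2 peaks called higher, 85 at least 3 and 13 at least 5, whereas 22 genes had at least 2 peaks called lower and 4 at least 3. Calls in both directions were found in 88 genes. Genes with 10 or more gene body peaks had 15.5% of these called higher and 2.43% lower, and genes with a single one 11.2% higher and 3.23% lower.

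Lrmda, a long gene of melanocyte differentiation, had the most, with 10 of 19 peaks called higher and none lower. The 10 lay between 128 and 763 kb from the start, with ratios from 1.53 to 3.70, and 1 passed limma (adjusted p = 0.0356). Its mRNA was 15.1, 14.6, 16.3 and 16.9 CPM in YHSCs and 16.0, 18.6 and 20.9 CPM in OHSCs (log2 change 0.21, adjusted p = 0.0819), and its promoter peak was not called. For 3 of the 10 peaks the nearest start of another gene was that of Zfp503, named after its values were seen and 158 to 250 kb away, whose mRNA was 0.449 to 0.701 CPM in YHSCs and 1.85 to 5.67 CPM in OHSCs (log2 change 2.32 ± 0.294 SE, adjusted p = 1.9e-06).

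In Zbtb20, a transcriptional repressor gene, 8 of 19 peaks were called higher and 6 of the 8 passed limma. The peak 185 kb from the start of the transcript listed with it had 1.18 and 0.819 in YHSCs and 2.96 and 2.76 in OHSCs, 2.87-fold higher (adjusted p = 6.0e-04). The mRNA of Zbtb20 was 228.0, 215.0, 220.7 and 198.6 CPM in YHSCs and 222.6, 244.8 and 258.4 CPM in OHSCs, overlapping and higher by 0.15 on the log2 scale (adjusted p = 0.0188), under the 1.5-fold limit. Prkce, for protein kinase C epsilon, had 6 of 21 peaks called higher and a log2 mRNA change of 0.21. Of the 6, 1 passed limma, with 3.57 and 3.61 against 6.07 and 6.39.

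Chrm3, the muscarinic acetylcholine receptor M3 gene, differed from these in that its mRNA rose as well, from 3.67, 4.598, 3.64 and 3.67 CPM to 16.5, 24.0 and 29.2 CPM (log2 change 2.59 ± 0.149 SE, adjusted p = 1.3e-10). Of its 15 gene body peaks 8 were called higher, spread from 61.8 to 470 kb from the start, and its promoter was called higher too. The strongest, at chr13:10219954-10221688, had 4.97 and 4.78 in YHSCs and 7.57 and 8.14 in OHSCs, 1.61-fold higher (adjusted p = 0.0047). The window printed from it holds an AP-1 and a RUNX match. Its accessible region was open at both ages, with 43.1 to 47.9 CPM in YHSCs and 43.3 to 51.9 CPM in OHSCs (adjusted p = 0.308).

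Scfd2, a vesicle transport gene, had the most peaks called lower, 4 of 10, with ratios from 0.454 to 0.666. Its strongest had 4.53 and 4.00 in YHSCs and 2.65 and 2.42 in OHSCs and passed limma (adjusted p = 0.0238). Scfd2 mRNA was 38.2 to 43.5 CPM and 36.7 to 39.2 CPM and was not called. For 2 of the 4 peaks the nearest other start was that of Rasl11b, also named after its values were seen, 65.1 and 148 kb away, with mRNA of 1.35, 1.62, 1.123 and 0.824 CPM in YHSCs and 0, 0.224 and 0.351 CPM in OHSCs (log2 change -2.52 ± 0.414 SE, adjusted p = 6.1e-05). Rasl11b passed the filter on low counts through its young libraries alone. Rora, for a nuclear receptor, had 24 peaks with 3 called higher and 3 lower, and mRNA of 42.9 to 52.6 CPM and 39.9 to 56.8 CPM.

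**Figure D4:**
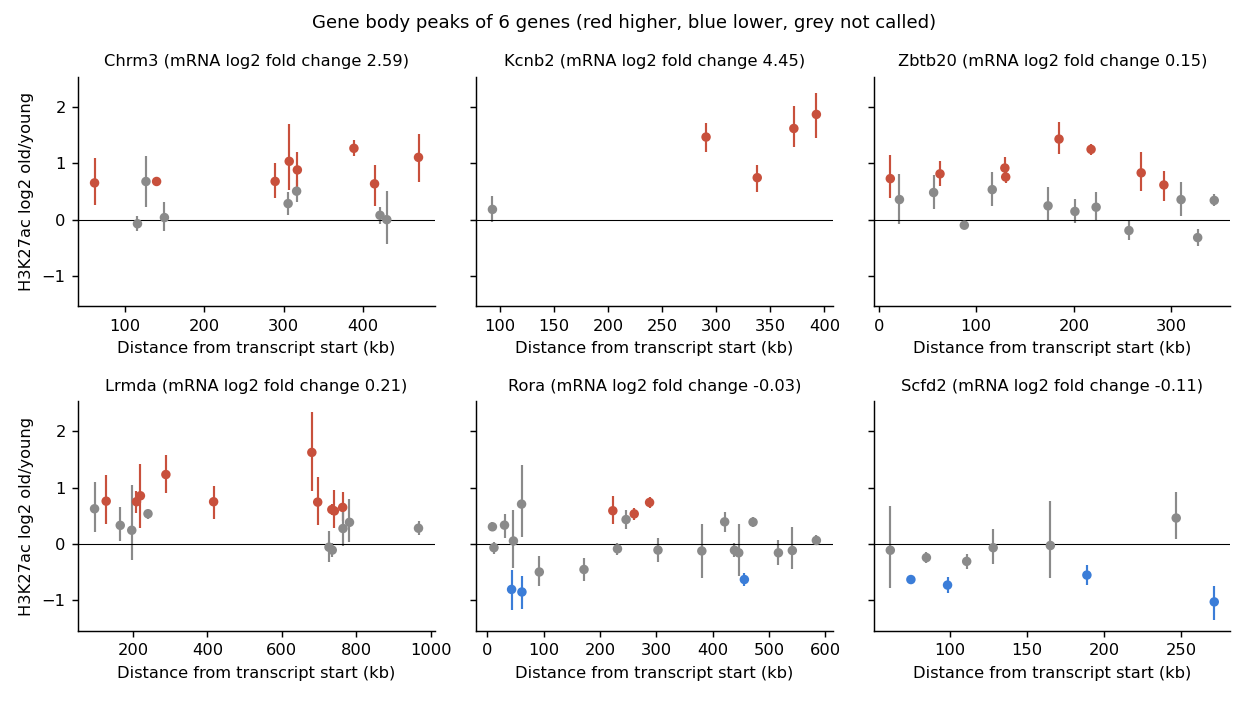
H3K27ac log2 ratio of OHSC to YHSC at each gene body peak of 6 genes against the distance of the peak from the transcript start in kb, with points at the ratio of the means and bars from the lowest to the highest of the 4 library pairings. Red peaks were called higher, blue lower and grey neither. Distances run from the start of the transcript listed with each peak. In the Zbtb20 panel the red peak at 11.9 kb was measured from another transcript start than the other red peaks. Chrm3 and Kcnb2 had higher mRNA, while Zbtb20 and Lrmda had 8 and 10 red peaks without an mRNA call, Rora had both colors and Scfd2 had 4 blue peaks.

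Over all gene body peaks, the nearest start of another gene was also compared. Among peaks called higher, 98 of 1064 such neighbors tested (9.21%) had higher mRNA, among peaks not called 478 of 7761 (6.16%) and among peaks called lower 8 of 269 (2.97%). For the gene that holds the peak the same shares were 16.4%, 6.5% and 3.63%. The gene itself or this neighbor had higher mRNA for 319 of the 1646 peaks called higher (19.4%), 1106 of 11620 not called (9.52%) and 22 of 414 called lower (5.31%).

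Accessibility was measured in separate libraries, and its calls pointed the same way as those of H3K27ac. Gained regions were those above 1.5 CPM in at least 4 libraries that rose by more than 1.5-fold with an edgeR adjusted p under 0.01, and lost regions those that fell. Of the 13680 gene body peaks 11811 (86.3%) shared at least 1 base with a region tested, 1160 with a gained one and 406 with a lost one, where 10.1% of all regions tested were gained and 2.9% lost. Of the 1160 peaks over gained regions, 544 (46.9%) were called higher in H3K27ac and 4 (0.345%) lower. Of the 406 over lost regions, 7 (1.72%) were called higher and 76 (18.7%) lower. Of the 10245 over regions neither gained nor lost, 678 (6.62%) were called higher and 240 (2.34%) lower.

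The median log2 ratio of H3K27ac was 0.58 over gained regions (0.48 to 0.72 over the 4 pairings), 0.08 over regions that were neither (-0.02 to 0.20) and -0.21 over lost regions (-0.34 to -0.11). The 3 ranges did not overlap. Where no region was tested the median was 0.27 in 1869 peaks. At promoters, gained regions were rare, lying under 116 of 13392 peaks (0.866%) against 8.48% of gene body peaks and 9.86% of intergenic peaks.

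At the Nrg3 peak the accessible region had 0.205, 0.275, 0.908 and 0.789 CPM in YHSCs and 6.58, 9.44, 4.84 and 7.15 CPM in OHSCs (log2 change 3.60 ± 0.271 SE, adjusted p = 5.2e-12). At the Csmd1 peak it had 27.5, 26.97, 27.7 and 26.4 CPM in YHSCs and 5.44, 4.74, 5.65 and 4.604 CPM in OHSCs (log2 change -2.41 ± 0.0937 SE, adjusted p = 2.5e-28). The direction was that of H3K27ac at both peaks, and the mRNA of both genes overlapped between ages. The Nrg3 region passed the filter on low counts through its old libraries alone, so that it had to be higher there.

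Higher acetylation and gained accessibility together went with more genes of higher mRNA. Among peaks with both, 104 of 507 with a tested gene (20.5%) lay in a gene with higher mRNA. With higher H3K27ac and no gained or lost region it was 148 of 1026 (14.4%). With gained accessibility and no H3K27ac call it was 58 of 573 (10.1%), and with no call in either measure 637 of 10066 (6.33%). The groups without a gained or lost region include peaks where no region was tested. A gene with several peaks counts at each of them here.

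**Figure D5:**
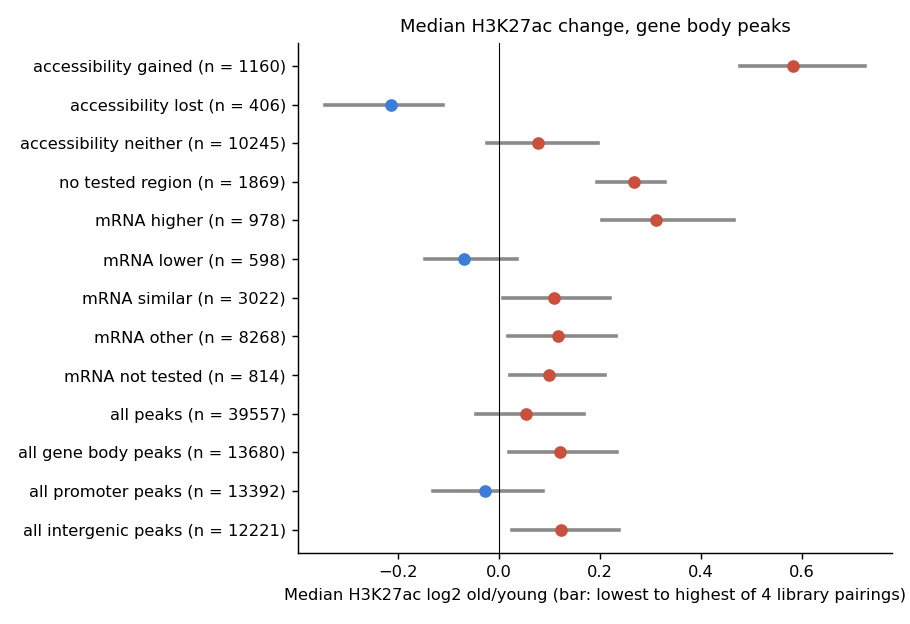
Median log2 ratio of H3K27ac in OHSCs to YHSCs for groups of gene body peaks split by the accessibility of the region under them and by the mRNA of their gene, with all, promoter and intergenic peaks at the bottom. Points are ratios of means, red above 0 and blue below, and bars run from the lowest to the highest of the 4 library pairings. Gained regions stood at 0.58 and lost regions at -0.21.

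The other histone marks describe the chromatin the peaks sit in. In YHSCs 6216 gene body peaks (45.4%) overlapped a peak of H3K4me3, a mark strongest at promoters, with a median H3K4me3 signal of 2.47 against 18.8 at promoter H3K27ac peaks. Intergenic H3K27ac peaks overlapped it in 48.4%. Among gene body peaks, those called higher overlapped it less often, in 20.3%, than those called lower, in 29.5%, or not called, in 49.6%. H3K4me3 was read in YHSCs, where the caller had not found most of the peaks called higher, so the order of these groups carries that limit. H3K27me3, laid down by Polycomb, overlapped 8.02% of gene body peaks, and 25.7% of those in genes whose mRNA was not tested, being too low or not matched to the counts. Domains of H3K36me3, a mark of transcribed gene bodies, covered 52.2% of the gene body peaks, 52.7% of those called higher and 4.67% of those in genes not tested. The sources used here do not give the age of the HSCs behind the H3K36me3 domains.

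Sequence was compared in windows of 200 bases around the accessible region of each peak. AP-1 letters stood in 9.84% of the gene body windows, 10.7% of the intergenic windows and 7.56% of the windows of all peaks. Among gene body peaks they stood in 161 of 1229 windows called higher (13.1%), 978 of 10262 not called (9.53%) and 23 of 320 called lower (7.19%). GATA letters stood in 14.6%, 11.1% and 10.9% of the same 3 groups and in 8.55% of the windows of all peaks. Their share was 11.5% of the gene body windows and 12.4% of the intergenic windows. RUNX letters stood in 24.5% and 21.8% of windows called higher and not called, in 64 of 320 called lower, and in 16.2% of all windows.

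ETS letters had the opposite order, with 6.02% of windows called higher, 7.69% of those not called and 10.0% of those called lower, against 5.53% of all. MEIS letters were nearly as frequent in the 3 groups, at 16.9%, 16.2% and 18.8% against 13.6% of all. E-box letters stood in 11.1% of windows called higher, 14.9% of those not called and 14.1% of those called lower, against 13.0% of all. In intergenic windows ETS letters stood in 7.4% and MEIS letters in 15.4%, against 7.58% and 16.4% of the gene body windows. The median GC content was 47.0% in windows called higher, 49.0% in those called lower and not called, and 65.5% at promoters. The letters describe the windows and do not show that a factor was bound.

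The gene lists were read by their counts. For genes of HSC identity, 17 of 30 had a gene body peak, with 14 of 89 peaks (15.7%) called higher and 1 lower, beside 12% and 3.03% of all gene body peaks, and a median log2 ratio of 0.14 beside 0.12 over all gene body peaks. With the libraries set to the same median signal 7 were called higher and 3 lower. Mecom, a transcription factor gene that HSCs need, had 28 peaks with 4 called higher and 1 lower. One of them, at chr3:30421525-30422340, had 2.30 and 1.39 in YHSCs and 4.33 and 3.49 in OHSCs (2.12-fold, adjusted p = 0.0040). Mecom mRNA was 315.2 to 356.1 CPM and 288.7 to 379.9 CPM and did not differ beyond its spread. Prdm16, another regulator, had 2 of 17 peaks called higher and Zfp521 1 of 9, without an mRNA call.

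Known HSC aging genes, a list built in part from mRNA of these samples and so no independent evidence of direction, had 39 of 102 peaks (38.2%) called higher and 3 lower in 28 genes, beside 12% and 3.03% of all gene body peaks, with a median of 0.40. Of the 28, 27 had higher mRNA, where 7.01% of all genes with a gene body peak did. Arhgef28, a guanine nucleotide exchange factor gene, had 3 of 13 peaks called higher and 1 lower. Dnm3, a dynamin gene, had 2 of 10 called higher, and Kcnq1 had 2 of 7 called lower with mRNA of at most 1.204 CPM in any library. Wwtr1, the Hippo pathway co-activator TAZ, was named after its values were seen: 5 of its 6 peaks were called higher, the strongest with 1.70 and 1.14 in YHSCs and 4.84 and 4.40 in OHSCs (3.26-fold, adjusted p = 1.5e-05), and its mRNA went from 10.1 to 15.2 CPM to 54.5 to 64.9 CPM. Its neighbor on chromosome 3, Tm4sf1, named likewise, had all 3 peaks called higher and mRNA higher by 1.98 on the log2 scale.

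In the list of megakaryocyte and platelet genes 14 of 30 had a gene body peak, 8 of the 14 had higher and 1 lower mRNA, beside 7.01% and 3.98% of all genes with a gene body peak. Of the 28 genes of the list tested 9 were higher and 4 lower. Of their 34 peaks 6 (17.6%) were called higher and 1 lower, beside 12% and 3.03%, with a median of 0.27. Vwf, for von Willebrand factor, had 1 of 4 called higher, Rab27b 1 of 6 higher and 1 lower, and Cd9 none of 4. Selp, for P-selectin, named after its values were seen, had mRNA of 40.9 to 63.9 CPM in YHSCs and 477.1 to 558.1 CPM in OHSCs and one gene body peak at 3.29 and 3.05 in YHSCs and 2.81 and 3.32 in OHSCs, which overlapped (adjusted p = 0.925), while its promoter peak was called higher (log2 ratio 1.51).

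Of 40 long neuronal and adhesion genes 36 had a gene body peak, with 34 of 168 peaks (20.2%) called higher and 7 lower, beside 12% and 3.03% of all gene body peaks, and a median of 0.24, at a median signal of 1.33. Of the 36, 2 had higher mRNA, Nrxn2 and Tmem132b, which were named after their values were seen, and 1 had lower mRNA, where 7.01% and 3.98% of all genes with a gene body peak did. Lsamp, a neural cell adhesion gene, had 5 of 12 peaks called higher and mRNA of 0.989 to 1.39 CPM in YHSCs and 0.215 to 1.88 CPM in OHSCs. Dlg2, a synaptic scaffold gene, had 3 of 14 called higher, with mRNA of 38.1 to 44.3 CPM in YHSCs and 32.5 to 41.2 CPM in OHSCs. Wwox, which spans a common fragile site, had 2 of 21 called higher and 1 lower, with mRNA of 20.3 to 25.2 CPM and 28.0 to 33.1 CPM, under the 1.5-fold limit.

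Lymphoid genes had 6 of 47 peaks (12.8%) called higher and none lower, beside 12% and 3.03% of all gene body peaks. With the libraries set to the same median signal 5 were called higher and 2 lower. In mRNA 5 of their 17 genes were lower and none higher, beside 3.98% and 7.01% of all genes with a gene body peak. Ebf1, the B cell master regulator, named after its values were seen, fell in mRNA from 2.36, 3.47, 5.07 and 4.91 CPM to 0.129, 0.807 and 1.63 CPM (log2 change -2.22 ± 0.40 SE, adjusted p = 0.000745), while its 4 gene body peaks had ratios of 0.814 and above and none was called. Tcf4 had 2 of 9 peaks called higher, Bach2 2 of 5 and Ets1 none of 4. Of the 10 B cell and plasma cell markers 7 had lower mRNA in OHSCs, and their part in the mRNA values of this list was not tested.

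Myeloid genes had none of 9 peaks called higher and 1 called lower, in Ly86, with Irf8 and Csf1r having none, too few peaks to read against the 12% and 3.03% of all gene body peaks. Of the 6 myeloid genes with a gene body peak 2 had lower and none higher mRNA, beside 3.98% and 7.01% of all genes with a gene body peak. Of the 23 genes of the myeloid list tested 4 had higher and 5 lower mRNA. Erythroid genes had 1 of 6 peaks called lower and none higher, again too few to read against those shares, in the spectrin gene Sptb, with lower mRNA for all 3 genes that had a gene body peak, Sptb, Ank1 and Rhd, beside 3.98% of all genes with a gene body peak. Of the 15 genes of the list 3 had higher and 8 lower mRNA, and of the 7 erythroid markers 4 had higher and 1 lower mRNA. The part of erythroid RNA in these values was not tested. The 6 peaks of early response and AP-1 genes, in Batf, Bach1, Klf6 and 1 other gene, had no call and are likewise few. For these 3 lists, the lymphoid list and the cytokine receptor list, the sign of the median lay within 0.10 of 0 and is not given a direction.

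TGF-beta and BMP genes had 5 of 54 peaks (9.26%) called higher and none lower, beside 12% and 3.03% of all gene body peaks, with a median of 0.21, or 0.12 with the libraries set to the same median. Of the 15 genes with a gene body peak 1 had higher and 1 lower mRNA, beside 7.01% and 3.98% of all genes with a gene body peak. Of the 5, 2 were the only gene body peaks of Bmpr1a, the BMP receptor 1A gene, named like Ltbp1 after its values were seen, whose mRNA was also higher, by 2.58 on the log2 scale, and 1 each lay in Tgfbr3 (of 12), Smad1 (of 5) and Ltbp1, with none of 6 in Smad3. Genes of cytokine receptors and JAK-STAT signaling had 2 of 29 peaks (6.9%) called higher, beside 12% of all gene body peaks, in the growth hormone receptor gene Ghr (1 of 4) and in Stat3 (1 of 3), with none of 6 in Jak1. Ghr mRNA was also higher, by 0.87 on the log2 scale.

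None of the 3 strongest gene body peaks passed limma. The highest mean signal was at chr9:41207377-41208092 in the non-coding gene 1700063D05Rik, with 14.8 and 14.2 in YHSCs and 14.4 and 15.3 in OHSCs (adjusted p = 0.888). The peak of Hivep2, a zinc finger gene, had 12.03, 11.1, 12.3 and 11.9 in the same order (adjusted p = 0.79). That of the transcription factor gene Nfic had 12.9 and 9.87 in YHSCs and 13.9 and 15.8 in OHSCs, a ratio of 1.30 (adjusted p = 0.0609). Young and old libraries overlapped at the first and second of these peaks, and at Nfic the old libraries were above both young ones without passing the test.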

How the data were processed

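RNA-seq and ATAC-seq values are counts as deposited by the authors, who trimmed with cutadapt, aligned to mm10 (STAR for RNA, BWA for chromatin) and, for RNA, counted with featureCounts. The H3K27ac signal is the authors' deposited value per peak, after duplicates and blacklisted reads were removed and libraries scaled to a fixed number of reads; the methods describe averages in bins across the genome but not how the value of a peak in this table was formed, and no depth can be read from it. The deposited fold columns were not used, nor were 8 columns of per-sample values that matched no sample. Spike-in counts (6.05% to 6.93%) were left out.

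Counts were tested with edgeR 4.0.16 (quasi-likelihood), with DESeq2 1.42.0 as an alternative, and log2(signal + 0.1) with limma 3.58.1, all with Benjamini-Hochberg adjustment over all features, in R 4.3.3. The fits were tested on simulated data. Peaks and regions were joined with bedtools 2.31.1 at a minimum overlap of 1 base. The members and lists were chosen with earlier results of these data known. Genes were named by rule: the 8 largest rises and 4 largest falls passing limma with a signal of at least 1, genes with the largest mRNA change in the same or opposite direction, those with the most called peaks, the 3 highest signals and up to 3 genes per list. Genes outside it are said to be named after their values were seen. Same-numbered young and old libraries did not deviate together (mRNA r = 0.04, -0.12, 0.00 and -0.23, H3K27ac r = 0.02), so the numbers do not pair them.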

Additional observations from a re-analysis of the deposited data

Results flagged for a closer look

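In 194 groups of 4 to 8 libraries at named genes and regions, 11 held a library far from the others, where chance gives about 1 in 20 groups. In mRNA these were Ntf3 in young replicate 4 (0.2473 CPM), Gm11149 in old replicate 1 (8.953 CPM), Itga9 in young replicate 1 (19.06 CPM), Gm13986 in old replicate 8 (0.7894 CPM) and Chrm3 in young replicate 2 (4.598 CPM). In accessibility they were the region at the Gpc3 peak in young replicate 3 (3.591 CPM), Chrm3 regions in old replicate 5 (4.505 and 5.178 CPM) and young replicate 2 (11.42 CPM), a Rora region in old replicate 5 (1.294 CPM) and the Nfic region in young replicate 1 (23.5 CPM). H3K27ac has too few libraries per age for this comparison.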

How the results depend on the processing

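Of 287 values under alternative settings 241 stayed close to the main value, counts within 1.5 times and medians within the SD of the 4 library pairings. The setting for peaks with a single listing used the main fit unchanged, so its values were the same by construction. The median log2 ratio in genes with lower mRNA, which has no test, changed sign without YHSC replicate 1, and there 72 peaks were called higher and 52 lower in place of 22 and 48. A pseudocount of 0.5 gave 878 higher and 163 lower calls by fold, with 8 lower in genes with higher mRNA and 23 lower in genes with lower mRNA. A fold above 2 gave 520 and 82 by fold, 258 and 26 by limma, 114 higher and 7 lower in genes with higher mRNA, and 6 higher and 14 lower in genes with lower mRNA. With 1 peak per gene these 4 counts were 82, 6, 4 and 16. A fold above 2 for mRNA gave 192 genes higher and 101 lower, and 166, 5, 7 and 28 peaks. A fold above 2 for accessibility gave 427 peaks over gained and 79 over lost regions. With libraries scaled to the same median signal limma called 136 lower. Leaving out 1 library gave 1764 to 3120 higher and 503 to 870 lower by fold, 19 to 1829 and 2 to 247 by limma, 246 to 405 higher and 13 to 24 lower in genes with higher mRNA, 15 to 72 higher and 45 to 90 lower in genes with lower mRNA, and a median log2 ratio of -0.13 to 0.0301 at gene body peaks of genes with lower mRNA. The lone library of an age was assumed to vary like the others. The causes were not tested.

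With the replicate number as a block, limma called 469 peaks higher and 61 lower, and the mRNA fit called 354 genes higher and 183 lower, with 14 peaks called higher in genes with lower mRNA. No paired analysis was possible for accessibility because young and old libraries share no replicate number.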
